A study of Mus musculus with 16 samples.

Results

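At Vil1, which encodes the actin-bundling protein villin, and Mt1, which encodes metallothionein 1, the signals of several histone marks were higher together in intestinal epithelial cells lacking NCoR1. More copies of the sequence in these cells and more of each mark per copy cannot be told apart here. The members are all regions of the deposited lists that touch a window around each gene, chr1:74440000-74490000 for Vil1 and chr8:96700000-96708000 for Mt1 on the mouse build mm9. They number 46 of the 23511 regions in the 10 lists that differ from each other, 42 at Vil1 and 4 at Mt1. The windows were chosen because these values stood out, so everything measured inside them is a description and carries no test.

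The study measured 6 histone marks by chromatin immunoprecipitation and sequencing (ChIP-seq) in jejunal epithelial cells of C57BL/6 neonates at postnatal day 12. Each mark had 1 library from wild-type mice (WT, named F/FUN in the series title) and 1 from mice whose intestinal epithelium lacks NCoR1 (KO, named ΔIECUN), so no difference can be set against replicate error. The 4 input libraries, 2 of each genotype, were not analysed here. Libraries held 27946003 to 47976125 tags, and 23925163 to 32444815 after duplicates were removed. Each list holds the regions where the library of one genotype exceeded that of the other for the same mark. These regions are called KO-higher and WT-higher. KO-higher lists could be used for H3K4me3, H3K9ac, H3K27ac and H3K9me3, with 131, 1883, 7111 and 1816 regions. The files labelled as KO lists of H3K4me1 and H3K27me3 repeat the WT-higher regions, so a gain of those marks in KO could not be looked for. The labels name neither the promoter that drove the deletion nor the construct that carried it, and do not explain the letters UN. The lists also hold regions on a contig named UGT1A, 76 WT-higher and 13 KO-higher, so the genome aligned to was extended beyond mm9 in both genotypes.

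Villin bundles and severs actin filaments in the core of microvilli, and its gene is a classical marker of the intestinal epithelium. Metallothioneins are small cysteine-rich proteins that bind zinc and copper, and Mt1 is induced by metals through its promoter. H3K4me3 lies mainly at active promoters, H3K9ac and H3K27ac at active promoters and enhancers, and H3K9me3 at silenced chromatin and repeats. H3K9me3 and the active marks therefore rarely cover the same sequence. NCoR1 is a corepressor that brings histone deacetylase activity to nuclear receptors.

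The sequences below are from the mm9 genome, plus strand, and are shown because the shared edges and summits of the marks fall in them. The left edges of the 4 KO-higher lists at Vil1 lie within 1 stretch of 130 bases, given in capitals, in chr1:74448517-74448716. The summits of all 4 marks at the upstream end lie in chr1:74448874-74448983, those of H3K4me3 and H3K9ac by the start site in chr1:74456011-74456119, and those of all 4 marks at the end of intron 1 in chr1:74460996-74461104, with the bases between the outermost summits in capitals. The right edge lies in exon 2, and capitals run from the start codon of villin to the last base of the H3K9me3 region in chr1:74461654-74461781. At Mt1, 3 of the 4 summits, 1 of each mark, lie in exon 2, given in capitals within chr8:96703683-96703828. The right edges at Mt1 lie past the end of the gene, and capitals run from the first to the last of them in chr8:96704329-96704490.
Vil1 left edge: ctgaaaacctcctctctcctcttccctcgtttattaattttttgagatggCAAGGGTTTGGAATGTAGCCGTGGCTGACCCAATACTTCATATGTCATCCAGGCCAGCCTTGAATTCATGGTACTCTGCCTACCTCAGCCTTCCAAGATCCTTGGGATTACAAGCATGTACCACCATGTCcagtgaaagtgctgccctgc
Vil1 upstream summits: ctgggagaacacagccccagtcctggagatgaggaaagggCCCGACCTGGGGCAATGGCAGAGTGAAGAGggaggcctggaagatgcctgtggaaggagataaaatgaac
Vil1 start-site summits: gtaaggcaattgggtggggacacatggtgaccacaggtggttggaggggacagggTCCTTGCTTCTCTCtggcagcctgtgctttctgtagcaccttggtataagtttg
Vil1 intron 1 end summits: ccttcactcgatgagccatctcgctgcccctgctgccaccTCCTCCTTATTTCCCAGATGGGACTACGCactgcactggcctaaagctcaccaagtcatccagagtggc
Vil1 right edge: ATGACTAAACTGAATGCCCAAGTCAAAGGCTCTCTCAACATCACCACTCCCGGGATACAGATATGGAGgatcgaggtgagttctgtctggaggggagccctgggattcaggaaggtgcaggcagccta
Mt1 summits: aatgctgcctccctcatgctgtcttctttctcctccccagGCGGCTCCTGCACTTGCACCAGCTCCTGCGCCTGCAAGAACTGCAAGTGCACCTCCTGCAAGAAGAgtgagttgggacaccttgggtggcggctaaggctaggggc
Mt1 right edge: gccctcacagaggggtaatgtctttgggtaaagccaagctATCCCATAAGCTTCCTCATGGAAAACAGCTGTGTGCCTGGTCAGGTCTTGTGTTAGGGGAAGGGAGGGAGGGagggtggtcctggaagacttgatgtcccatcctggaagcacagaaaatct

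At Vil1 (chromosome 1, 74455950 to 74482133, plus strand, 20 exons), 4 marks were KO-higher over 1 block that began upstream of the gene and stopped in its second exon. The block ran from 74448567 to 74461721, 13155 bp in all. It began 7383 bp before the start site and ended 5771 bp after it, 67 bp past the first base of the start codon and 7 bp before the end of exon 2. As called, it thus held the 5′ flank, exon 1, intron 1 and nearly all of exon 2, and none of exons 3 to 20. The caller extends each tag to the fragment length, 138 to 164 bp in the KO-higher lists. An edge can therefore lie off the underlying sequence by about that much, which is more than the length of exon 2. Of the 42 regions in the window, 38 lay in the block, and 99.2% of all KO-higher covered bases lay left of position 74461721. That position is the last base of the block itself, so the share follows largely from where the split was placed.

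The edges of the block nearly coincided between marks. H3K4me3 spanned 74448567 to 74461709, H3K9me3 74448574 to 74461721, and H3K27ac 74448659 to 74461702 within the block. The right edges of these 3 marks thus fell 55, 67 and 48 bp past the first base of the start codon, inside the 86 bp of exon 2. H3K9ac was the exception on the right: it began at 74448696 and its last region ended at 74461177 in intron 1, at -477 bp relative to the first base of the start codon. The left edges spread over 129 bp. No WT-higher region of any of the 6 marks touched the Vil1 window, and the nearest KO-higher H3K9me3 region outside the block lay 1454151 bp away and the nearest H3K4me3 region 6497348 bp away.

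**Figure D1:**
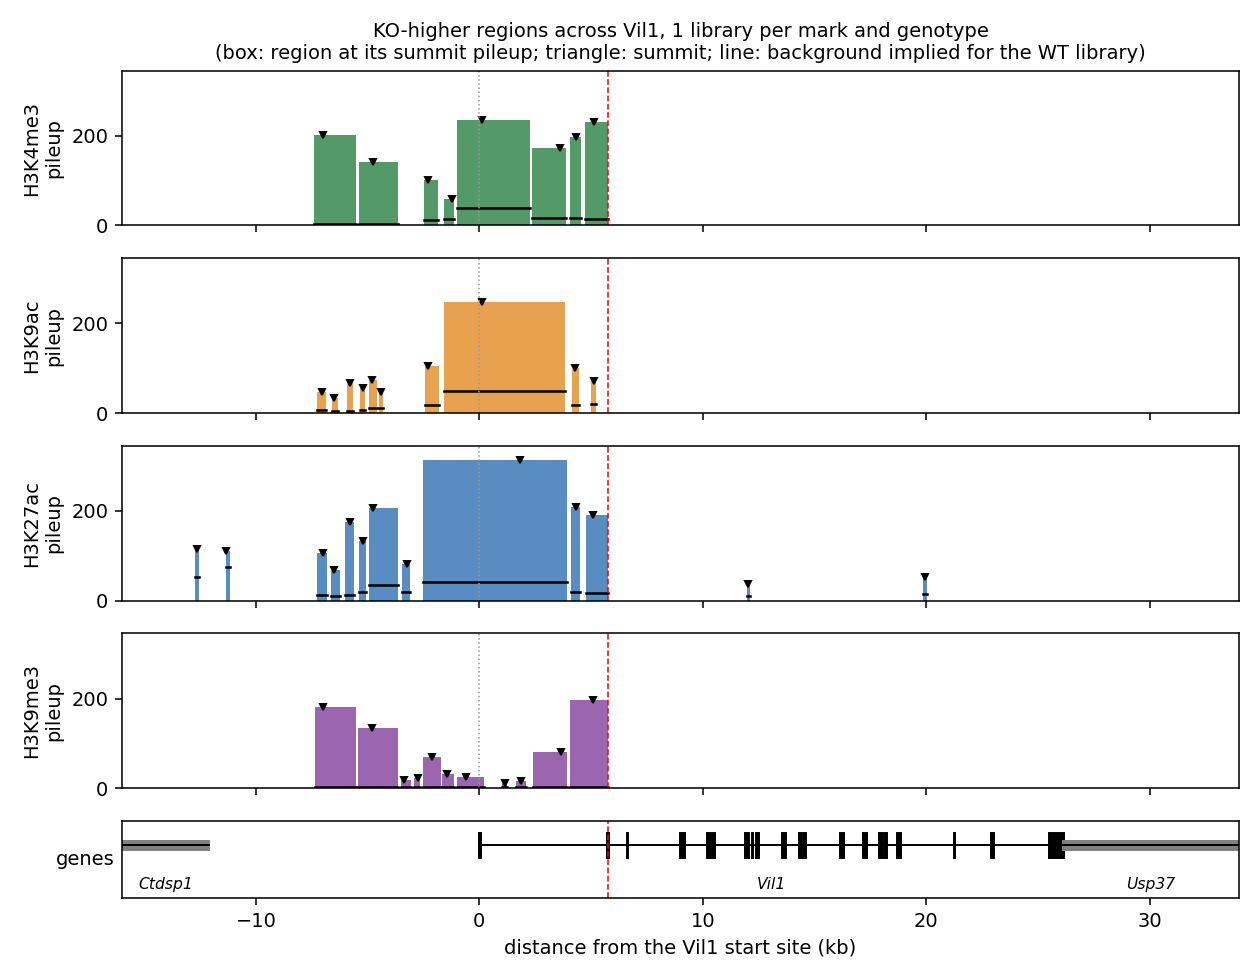
KO-higher regions of 4 marks (rows) by distance from the Vil1 start site in kb, drawn as boxes whose height is the pileup at the summit in the KO library, with triangles at summits, black lines at the background implied for the WT library, a dotted line at the start site and a dashed red line at position 74461721. Regions of 4 marks lie in the 13155 bp left of the dashed line, with breaks, and right of it only 2 small H3K27ac regions remain.

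The pileup, which counts the fragments that overlap the summit after scaling to the smaller library, is set beside the fold, the pileup over the caller's local background in the WT library. Both are the authors' values per region. Because 1 tag was kept per position, a pileup has a ceiling that grows with the fragment length, 138 to 164 bp in the KO-higher lists. The ceiling is higher than that length itself, since H3K27ac reached a pileup of 314.0 with fragments of 164 bp. The highest pileups, and the folds that rest on them, can therefore be held down, and how far was not tested. For H3K9me3 the pileup was highest at both ends of the block. From left to right the 11 regions had pileups of 180.0, 135.0, 19, 23, 69, 32, 24, 12, 16, 81 and 196.0. The folds at both ends were 65.3 and 71.0, and the lowest, 4.69, belonged to the region at 74456978 to 74457187 in intron 1. Values of 32 or less thus filled the middle of the block, from 74452452 to 74458028, apart from 69 at 74453413 to 74454215.

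H3K27ac and H3K9ac had their highest pileups, though not their highest folds, where H3K9me3 was low. A single H3K27ac region of 6417 bp, from 74453443 to 74459859, covered the start site, with a pileup of 314.0 and a fold of 7.38 at its summit in intron 1. It was the longest region of that list and the one with the highest pileup. The H3K9ac region over the start site, 74454351 to 74459781, was 5431 bp long, reached a pileup of 247.4 with a fold of 5.05, and was likewise first of 1883 in length and pileup. In the upstream end, by contrast, the 6 H3K9ac regions before its widest break had pileups of only 33.41 to 73.15. The folds of both acetylation marks were instead highest there. H3K27ac reached 12.7 at 74449921 to 74450349, and H3K9ac 11.5 at 74450007 to 74450311. Both regions lie within the left-end H3K9me3 region, which had a pileup of 180.0 and a fold of 65.3.

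H3K4me3 was high both at the start site and at the ends of the block. Its 8 regions had pileups of 202.7, 141.9, 100.9, 59.86, 236.0, 172.7, 197.5 and 231.7 from left to right. The fold was highest at the left end, 50.9 at 74448567 to 74450413, and only 5.79 over the start site itself, where the WT library was also high. The next folds were 27.6 at 74450559 to 74452286 and 15.5 at 74460661 to 74461709. The highest H3K4me3 fold of any region outside the members was 10.7.

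The 4 marks shared bases over much of the block, and the block had breaks. All 4 lists covered 6579 bp (50.0%), 3 lists 3587 bp (27.3%), 2 lists 1689 bp (12.8%), 1 list 762 bp (5.79%) and no list 538 bp (4.09%). H3K27ac covered 84.3% of the block in 9 regions, H3K4me3 83.3% in 8, H3K9me3 82.2% in 11 and H3K9ac 63.6% in 10. The widest break of H3K9me3, 837 bp at 74456141 to 74456977, lay just after the start site, in intron 1, and within the long H3K9ac and H3K27ac regions. The widest breaks of the other marks lay upstream, 1891 bp for H3K9ac, 1200 bp for H3K4me3 and 598 bp for H3K27ac, and the H3K27ac break, 74452845 to 74453442, lay within the other 2.

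The block had 5 intervals open in all 4 lists, at 74450422 to 74450499, 74452327 to 74452451, 74452899 to 74453020, 74453301 to 74453412 and 74459887 to 74459987. Sequence that occurs more than once in the genome can leave such gaps when its reads are discarded, so every 50-base word of the block was counted in mm9. Repeated words covered 1321 bp of the block and 150 of the 538 bp (27.9%) open in all lists, beside 667 of the 6579 bp (10.1%) covered by all 4. In the open bases they lay in the second and the last of the 5 open intervals (98 of 125 bp and 52 of 101 bp) and in none of the others. A run of repeated words also ended 37 bp left of the block, whereas on the right the next one began 1441 bp past the edge. The left edge therefore has repeated sequence beside it and the right edge has not. The labels and headers do not state how reads with several matches were treated. They also differ on read length, 50 cycles in the labels and a tag size of 75 bp in the headers, and longer reads would leave fewer repeated words.

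**Figure D2:**
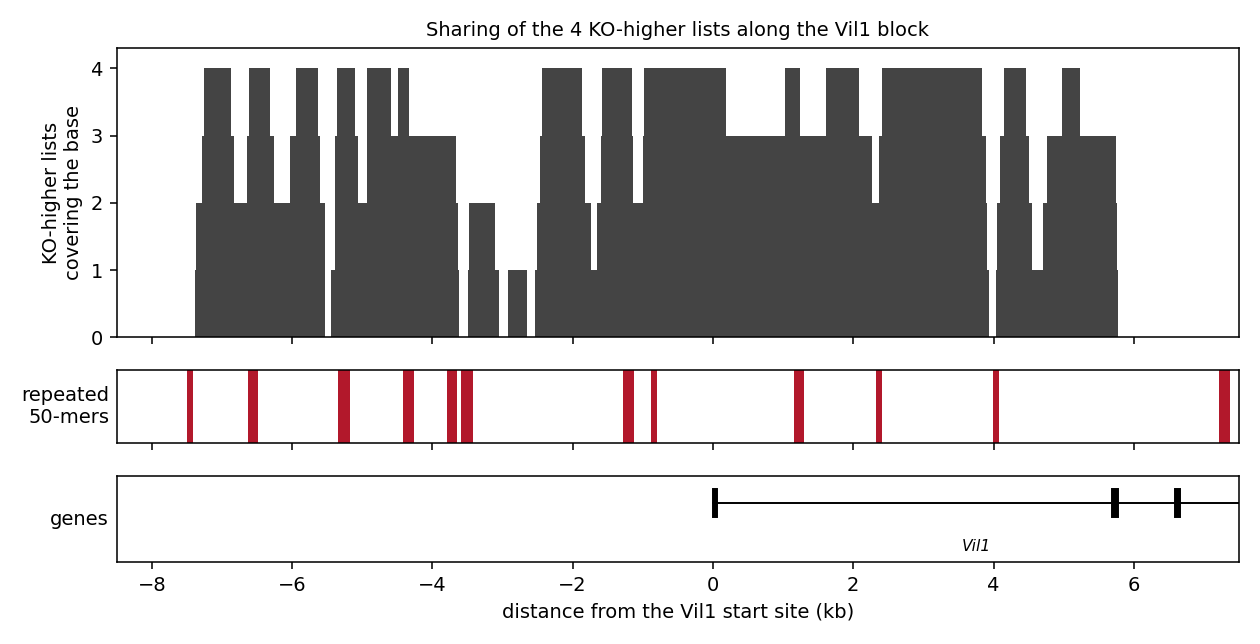
Number of the 4 KO-higher lists that cover each base of the Vil1 block (top), runs of 50-base words found more than once in mm9 (middle) and the first exons of Vil1 (bottom), by distance from the start site in kb. All 4 lists cover 6579 of 13155 bp, and 3 of them end in the second exon, whereas H3K9ac ends in intron 1.

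Summits of different marks fell on nearly the same bases at some places of the block. At the upstream end the 4 summits lay between 74448914 and 74448943, a spread of 29 bp, and a second group of 4 lay between 74451148 and 74451182 (34 bp). At the end of intron 1 the 4 summits lay between 74461036 and 74461064 (28 bp). Those of H3K4me3, H3K9ac and H3K27ac also met at 74460249 to 74460273 (24 bp). Close summits are not particular to Vil1. Outside the members, 572 of 731 overlapping pairs of KO-higher H3K9ac and H3K27ac regions (78.2%) had summits within 50 bp of each other, and among such pairs of members 7 of 10 had (70.0%). In the other pairings of marks most overlapping members had summits farther apart, except that 6 of 12 pairs of H3K4me3 and H3K9ac lay within 50 bp. The share within 50 bp was 5 of 11 for H3K4me3 with H3K9me3, 5 of 13 for H3K4me3 with H3K27ac, 5 of 16 for H3K27ac with H3K9me3 and 3 of 14 for H3K9ac with H3K9me3. Outside the members it was 19 of 35 (54.3%) for H3K4me3 with H3K9ac and 14 of 31 (45.2%) for H3K4me3 with H3K27ac. For H3K9me3 there was little to compare with, since outside the members its KO-higher regions overlapped 0 H3K9ac, 2 H3K27ac and 3 H3K4me3 regions.

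The rest of the gene looked different. To the right of 74461721, 20412 bp of the gene body held 2 KO-higher regions, both H3K27ac. The first, at 74467913 to 74468082 with its summit in exon 7, had a pileup of 36.00 and a fold of 3.14. The other, at 74475822 to 74476002 in intron 17, had 52.00 and 3.56. Within the block the 9 H3K27ac folds ran from 4.04 to 12.7 with a median of 7.38, so both regions of the rest of the gene lay under the lowest of them. Left of the block, 2 further H3K27ac regions had folds of 2.11 (74443211 to 74443409, in the neighbouring phosphatase gene Ctdsp1) and 1.47 (74444590 to 74444797, between the genes). The latter, with a -log10 q of 1.63, was the weakest of all members. It lay 3769 bp from the block.

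At Mt1 (chromosome 8, 96702989 to 96704225, plus strand, 3 exons), H3K9me3, H3K4me3 and H3K27ac had KO-higher regions over the body of the gene and none over its promoter. A missing call at the promoter does not show equal signal in the 2 genotypes. The footprint as called ran from 96703140 to 96704440, 1301 bp, with edges limited by the fragment length as at Vil1. It began 151 bp after the start site, within exon 1 and 71 bp before the start codon. It ended 215 bp past the end of the gene and 347 bp past the stop codon. H3K9me3 covered all of it, H3K4me3 ran from 96703188 to 96704419, and H3K27ac had 2 regions, 96703175 to 96703347 and 96703578 to 96704369. No KO-higher H3K9ac region lay in the window, the nearest being 173930 bp away, and no WT-higher region of any mark did. All 3 lists shared 952 bp (73.2%) of the footprint, and no base of it lay in a repeated 50-base word.

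The 3 marks at Mt1 differed widely in fold, while 3 of the 4 summits lay within 5 bp, from 96703736 to 96703741 in exon 2. The summit of the first H3K27ac region lay apart from them, at 96703293 in intron 1. H3K9me3 had a pileup of 235.0 and a fold of 85.1, the highest fold and the highest -log10 p (401) of its 1816 regions. H3K4me3 had the highest pileup of its list, 244.6, with a fold of only 2.79, ranked 116 of 131. H3K27ac had pileups of 109.0 and 155.0 and folds of 1.82 and 2.28. The neighbouring metallothionein gene Mt2, which ends 5673 bp before the footprint, had no region of any list within 5 kb of its body.

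**Figure D3:**
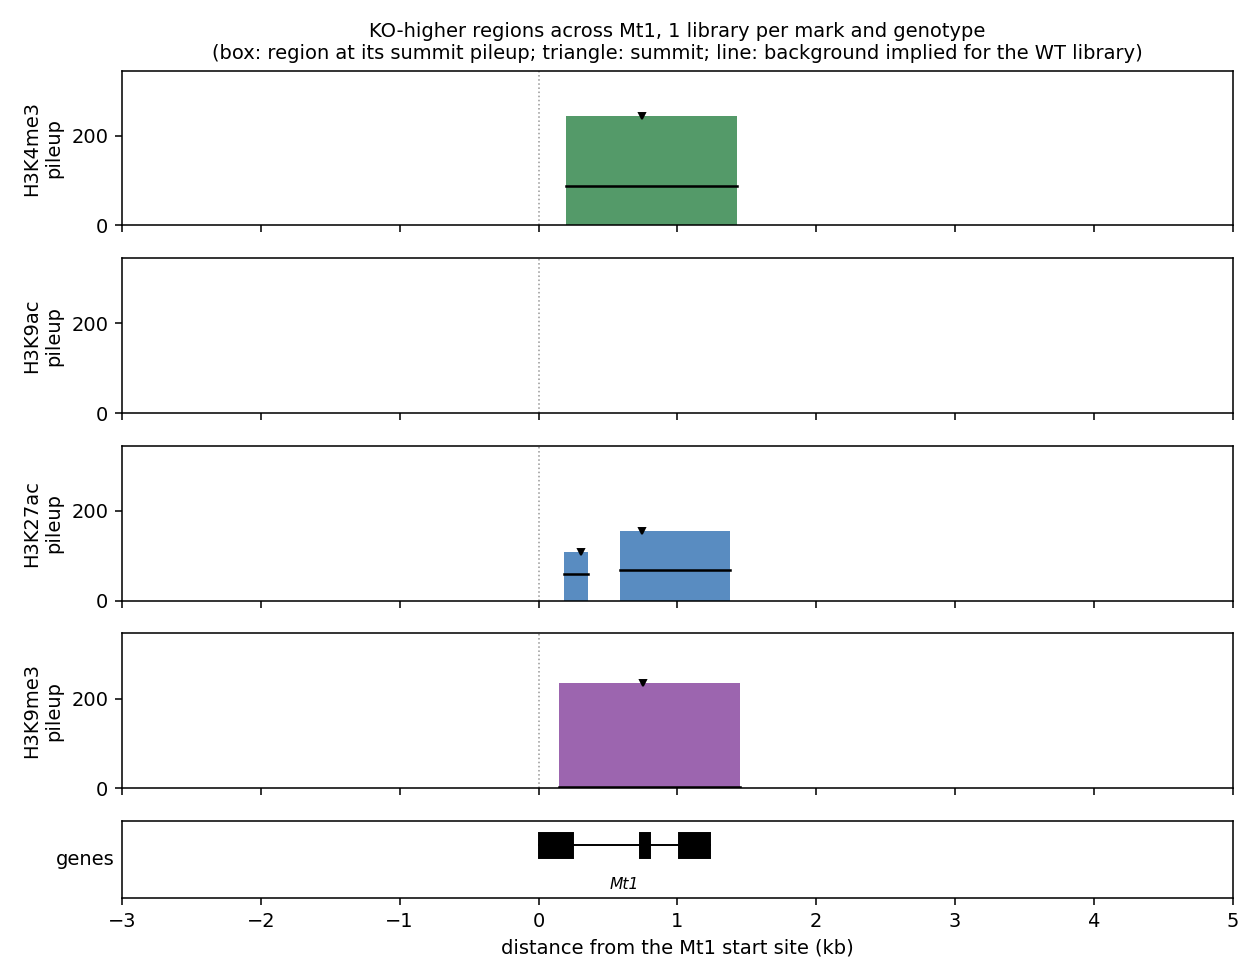
KO-higher regions of 4 marks (rows) by distance from the Mt1 start site in kb, drawn as in the map of Vil1. H3K4me3 and H3K9me3 regions begin 199 and 151 bp after the start site (dotted line) and end past the last exon, and the H3K9ac row is empty.

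The fold rests on the WT library, whose background at each region can be recovered as the pileup plus 1, divided by the fold, minus 1. This value is the largest of several averages, over up to 10000 bp, and so is not the WT signal at the summit itself. With this formula 266 of the 1816 KO-higher H3K9me3 regions (14.6%) gave the same lowest value, 1.77, the floor of that list. Of the 12 H3K9me3 regions of Vil1 and Mt1, 11 had that floor as background, and the other had 1.95. At those 11 regions no local average of H3K9me3 in the WT library exceeded the floor. Against this, the KO pileup was 12 to 235.0.

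For the active marks the WT library was not at its floor. H3K4me3 at Mt1 had an implied WT background of 87.0, and H3K27ac there had 59.5 and 67.5. In the regions that cover the Vil1 start site the implied background at the summit was 39.9 for H3K4me3, 48.2 for H3K9ac and 41.7 for H3K27ac, whose summit lay 1817 bp into the gene. At the left end of the block it was 3.0 for H3K4me3, 7.0 for H3K9ac and 11.9 for H3K27ac. Differences in fold between marks and between places in the block therefore follow both the KO pileup and the WT level. H3K4me3 at Mt1 and at the left end of the block had KO pileups of 244.6 and 202.7, and folds of 2.79 and 50.9. Pileups this high may be held down by the ceiling that the fragment length sets, so they do not show a similar signal.

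**Figure D4:**
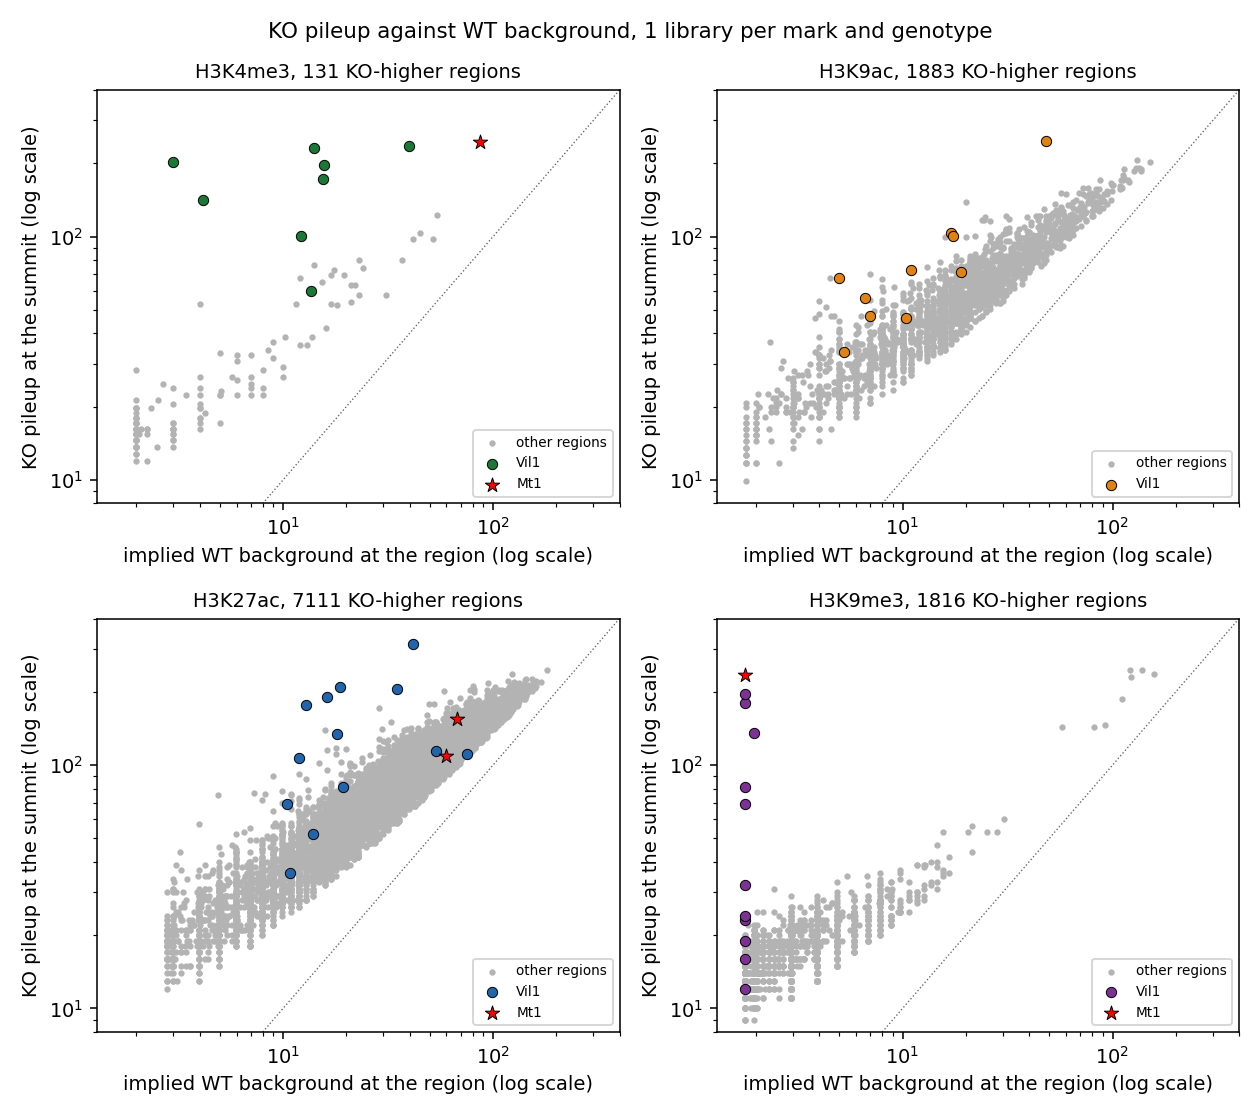
Pileup at the summit in the KO library against the background implied for the WT library (both log scale) for every KO-higher region of 4 lists, with Vil1 regions as coloured circles, Mt1 regions as red stars and all others grey; the dotted line marks equality. In the H3K9me3 panel all members sit at the left margin, 11 of 12 at 1.77, and reach pileups of 235.0, whereas the other regions with such pileups have a higher background.

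The highest ranks of each list included members, and other members ranked low. Members made up 9 of the 10 highest folds of H3K9me3, 6 of 10 for H3K4me3, 3 of 10 for H3K27ac and 1 of 10 for H3K9ac. By -log10 p they made up 7, 8, 7 and 4 of the first 10, and by pileup 3, 8, 1 and 1. At the other end, the H3K27ac region at 74444590 ranked 6991 of 7111 by fold, and the H3K9me3 region at 74456978 ranked 1635 of 1816 by pileup. The highest H3K9me3 fold outside the members was 9.32. These ranks describe the values that the members were chosen by.

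Sharing of KO-higher H3K9me3 with KO-higher active marks was rare in the rest of the genome. These counts are of gains in KO that overlap, and do not show where the marks themselves lie together. The KO-higher H3K4me3 list holds only 131 regions, which limits how many could share a base with it. Of the 1816 KO-higher H3K9me3 regions, 13 (0.716%) shared a base with KO-higher H3K4me3, 9 of them at Vil1 and 1 at Mt1. For H3K27ac it was 13 (0.716%), 10 of them at Vil1 and 1 at Mt1, and for H3K9ac 9 (0.496%), all at Vil1. When the 4 lists were merged at overlaps of at least 1 base, 4 of 10128 stretches (0.0395%) held all 4 marks, and all 4 stretches were parts of the Vil1 block. Joined across gaps of up to 1 kb they became 1 stretch, the block itself, which was the second longest of 8535 (median 185 bp). The longest, 13895 bp, lay at Srebf1, the regulator of lipid synthesis genes, and held the 3 active marks without H3K9me3. By genes, 3 of 21693 protein-coding genes (0.0138%) had all 4 marks within 5 kb. They were Vil1, its neighbour Ctdsp1, which the block reaches only by that margin, and Gm20388, a gene model that spans several megabases. H3K4me3, H3K27ac and H3K9me3 without regard to H3K9ac lay together within 5 kb of 6 genes (0.0277%), these 3 and Mt1, Sntg1 and C230081A13Rik.

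The stretches most like Vil1 were ordered by the number of the 4 lists present and then by the lowest of the highest folds per mark. After Vil1, with a lowest value of 11.5, all had 3 lists. Those next in order were near Gm6034 (9.91), Hgd (5.62), Areg (5.33), Scd2 (4.09), Srebf1 (4.03), Abca1 (3.39), Pdk4 (3.39), Abcg5 (3.21) and Sprr2a1 (3.17). Hgd breaks down tyrosine, Areg is an EGF receptor ligand, Scd2 desaturates fatty acids, Abca1 and Abcg5 export sterols, and Pdk4 restrains glucose oxidation. Of the 22 stretches with 3 lists, only the one at Mt1 included H3K9me3. Mt1 stood 18th in this order, with a lowest value of 2.28.

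KO-higher acetylation was found at many genes of a brush border list, and KO-higher H3K4me3 and H3K9me3 at Vil1 alone among them. Of 25 listed genes, 24 were among the protein-coding genes used (Myo7b was not). Of these, 15 had KO-higher H3K27ac within 5 kb, beside 11.5% of all protein-coding genes. KO-higher H3K9ac lay at 11 (beside 4.11%), whereas KO-higher H3K4me3 (beside 0.267%) and H3K9me3 (beside 2.06%) each lay at 1, Vil1. Vil1, which was chosen by these values, is in both acetylation counts. Mttp is also in both, and Fabp2 is in that of H3K27ac. Mttp and Fabp2 serve lipid handling and are not structural parts of the brush border. After Vil1, the members with the highest folds were Pls1, which encodes the actin bundler plastin 1 (H3K9ac 7.05, H3K27ac 4.19), Eps8, an actin-capping protein (6.06, 5.22), and Anks4b, a scaffold of the links between microvilli (5.05, 4.03). Pls1 also had WT-higher regions, of H3K27ac (2.46) and H3K4me3 (1.57), and Eps8 of H3K4me1 (2.29). The villin relatives Vill and Avil had no region in any list. WT-higher regions lay at 4 members for H3K4me3 (17.3%), 2 for H3K27ac (8.0%), 5 for H3K4me1 (7.53%) and none for H3K9ac (8.17%), H3K9me3 (0.705%) or H3K27me3 (0.668%).

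Among 13 metallothionein and zinc-handling genes, KO-higher H3K27ac lay at 7 (beside 11.5% of all protein-coding genes) and H3K9ac at 2 (beside 4.11%). The 7 include Mt1, which was chosen by these values. H3K4me3 (beside 0.267%) and H3K9me3 (beside 2.06%) were KO-higher at 1 each, Mt1. After Mt1, the highest folds were those of H3K27ac at Mtf1, the metal-sensing transcription factor (3.32), and at the metal importers Slc39a8 (3.1) and Slc39a14 (3.1). Mt2, Mt3 and Mt4 had no KO-higher region. Mt3 and Mtf1 had WT-higher H3K4me3 (2.62 and 1.89), and Mtf1 also had WT-higher H3K4me1 (2.37). Of 10 immune and stromal marker genes, 1, Col3a1, had a region in any list (KO-higher H3K9me3, fold 6.85, beside 2.06% of all genes). Over all genes the other shares ran from 0.267% for KO-higher H3K4me3 to 17.3% for WT-higher H3K4me3.

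As called, neither footprint matched a whole gene or a promoter: that of Vil1 stops in exon 2 just past the start codon, and that of Mt1 leaves out the promoter and runs past the last exon. They also differ in composition, with a GC content of 47.6% and 10.6 CpG sites per kb at Vil1 and 52.9% and 34.6 at Mt1. The regions of the 4 KO-higher lists had median GC contents of 53.5 to 54.9%. Those regions are far shorter, with median lengths of 151.5 to 193 bp, and the Vil1 footprint includes breaks, so the values are not like for like. As background, Cre recombinase driven by villin regulatory sequence is a standard means of deleting genes in the intestinal epithelium, and the polyadenylation signal of mouse metallothionein 1 has been placed behind Cre in widely used plasmids. A transgene adds copies of any mouse sequence it holds, and its reads align to the endogenous gene. The labels do not say what construct the KO mice carried or whether F/FUN mice carried it, its sequence was not used here, and the lists were called against the other genotype and not against input. More copies of a sequence in KO and more of each mark per copy therefore cannot be told apart at either gene, and the number of copies was not tested. The authors' deposited table of RNA changes names neither gene, and nothing is read from that absence, since it can mean unchanged or not listed.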

How the data were processed

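The regions were called by the authors, per the file headers, with MACS 2.0.10.20130419, using the library of the other genotype and the same mark as control, at a q cutoff of 0.05 and with 1 tag kept per position. The submitters' processing notes name MACS2 2.1.1, Bowtie2 2.2.9, CASAVA 1.8.2 and HOMER 3.12, and the difference in version was not resolved. Per the file headers, each deposited region has a pileup (a signal, with the larger library scaled down), a fold (a ratio over local background) and -log10 p-value and q-value. The coordinates are used as deposited. Of 23511 regions, 23378 lie on chromosomes of NCBI build 37, the assembly of mm9, all within its chromosome lengths. Gene models are GENCODE M1, with 21693 protein-coding genes used, and genes on chr18, chrY and chrM were left out.

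The windows, the split at 74461721 and the gene lists were chosen with earlier results of these data known. Regions were kept if they shared at least 1 base with a window, and belonged to the side of the split that held the summit. Named genes were Vil1, Mt1, genes in the windows, the 10 stretches most like Vil1, and the 4 members of each list with the highest KO-higher fold. Others were named after their values were seen. Words of 50 bases were counted on both strands of the genome. With 1 library per group no test was made. Merging and overlap code was tested on simulated regions. Alternatives were a -log10 q of at least 5, a fold of at least 3, summits instead of overlaps, joining across 1 kb, an overlap of 50% and gene bodies alone. The table that repeats the H3K4me1 list holds 12 per-library RNA columns, which were not used. Python 3.11.15 and NumPy 2.4.6 were used.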

Additional observations from a re-analysis of the deposited data

How the results depend on the processing

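Of 36 alternatives to 14 counts and shares, 32 left the value within 1.5 times the reported one, or at the same share, and 4 did not. At least 4 of the 32 could not have moved. H3K9ac has no region at Mt1, which fixes the bases in all 4 lists there at 0 in 3 alternatives. No region crosses the split, which is the last base of the block, so that assigning regions by summit changes nothing. A fold of at least 3 also removes no region of the block, whose lowest fold was 3.62. Under it the bases in all 4 lists at Vil1 and the stretches with all 4 marks were fixed too. With a fold of at least 3, the number of KO-higher regions at Mt1 went from 4 to 1, the H3K9me3 region being the one left. Joining the regions of a mark across gaps of up to 1 kb raised the bases of the Vil1 window covered by all 4 lists from 6579 to 10591, and turned the 4 stretches with all 4 marks into 1, since it closes the breaks. With a -log10 q of at least 5, the metallothionein and zinc genes with KO-higher H3K9ac went from 2 to 1. The stretches with all 4 marks lay in the Vil1 block under every alternative run. Leaving out the 2 H3K27ac regions left of the block, an alternative chosen after seeing the data, kept the share of covered bases left of the split at 99.2%. These regions cover only 407 bp, so the share could scarcely move. No paired analysis was possible because each mark had 1 library per genotype. Leaving out a replicate was not possible for the same reason. Pileups depend on the depth of 1 library each, and ranks compare regions within a list only.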
